A study of Homo sapiens with 14 samples.

Results

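MAGT1 is an X-linked gene with A-to-G sites listed under each of 4 RNA base editors. Its sites were chosen by location, as all positions, in any of 14 deposited lists, that fall on chromosome X between 77081000 and 77151100 of hg19. There were 17 such positions, listed 42 times in all, of 26172 distinct positions in the whole series. The gene itself was selected on its listed rates, since sites in it recur across the lists, so which libraries list a site and how high it is there is given as a description. The 1 test reported compares guides within Repair.t1, a contrast that the rule for the sites did not use. At the high end of the window the last site inside was 77126378, and the next listed position beyond it was 77158187, at 0.111 in 1 DECOR library; no site was listed within 1000000 bases below the window.

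MAGT1 encodes a membrane protein of the endoplasmic reticulum that serves as a subunit of the oligosaccharyltransferase complex, which attaches glycans to asparagines of newly made proteins, and it has also been described as a magnesium transporter. Inherited loss of its function causes an immunodeficiency with a magnesium defect and chronic Epstein-Barr virus infection. In RNA base editors that act on adenosine, a deaminase turns it into inosine, and sequencing reads inosine as guanosine. Deaminases of this kind act beyond the transcript that a guide points to, and lists of A-to-G sites across the transcriptome are a usual record of that activity.

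The cells were HEK293T, an established human embryonic kidney line labelled as epithelial, and polyadenylated RNA was sequenced. The labels name no allele, drug or time. All 14 libraries carried an editor, and sites present in cells without an editor are therefore unknown. Cells with Repair.v2 and cells with Repair.t1 received a guide labelled NT or a guide labelled EZH2_A22. Cells with dCas13d-ADAR received NT or EZH2, and cells with DECOR received MALAT1 alone. Repair.v2 is known as a fusion of an inactivated Cas13 protein, which carries the guide, with a deaminase domain taken from human ADAR, and the labels do not describe Repair.t1 or DECOR further. The series title speaks of an evolved bacterial adenosine deaminase, which the labels do not tie to an editor. Each of the 7 groups had 2 libraries, and the labels do not say that these came from separate cultures, so their spread may be technical. DECOR libraries were read for 62 and 160 cycles and the others for 25 and 97. For DECOR the editor, its guide and the read length cannot be told apart.

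Lists of Repair.v2 held 46 to 101 sites, against 4356 to 4784 for Repair.t1, 5730 to 5834 for dCas13d-ADAR and 5516 to 5855 for DECOR. The lists give a level, the fraction of A read as G, without read counts. The depth behind each level is therefore not stated, and no counting interval is given. Levels such as 0.818182 and 0.578947 at MAGT1 sites match ratios of small whole numbers, as few reads would give. Single values and their ranks may therefore be imprecise. A position that a list lacks may have had few reads or a level too low to be listed, as well as no editing.

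The RefSeq table of GRCh38.p14 places MAGT1 on the minus strand, so that lower coordinates lie nearer the 3′ end of its RNA. It puts the pseudogenes RNU6-854P and RN7SL460P within the gene, and ATRX and COX7B next to it as protein-coding neighbours. Since that table is of another build than the lists, exons, introns and untranslated regions were not assigned to the sites, and the bases around them were not analysed here. The lists hold no strand, so a listed position could come from a transcript of the opposite strand. The limits of the window were not checked against an hg19 annotation. A MAGT1 site here therefore means a listed position inside the window.

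The MAGT1 sites lay mostly in 2 clusters, each with listings from all 4 editors in differing numbers. Linking positions up to 200 bases apart, 15 of the 17 positions fell into a lower-coordinate cluster of 8 sites over 372 bases (chrX:77082125-77082496) and an upper-coordinate cluster of 7 sites over 88 bases (chrX:77083828-77083915), with 1332 bases between them. The whole stretch of 1791 bases ended 2915 bases above the low end of the window. The other 2 sites were isolated, at positions 77112868 and 77126378. Repair.t1 listed 7 of the 8 sites of the lower cluster, while Repair.v2, dCas13d-ADAR and DECOR listed 1 each. In the upper cluster DECOR listed 5 of the 7 sites, dCas13d-ADAR 3, Repair.t1 2 and Repair.v2 1.

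**Figure D1:**
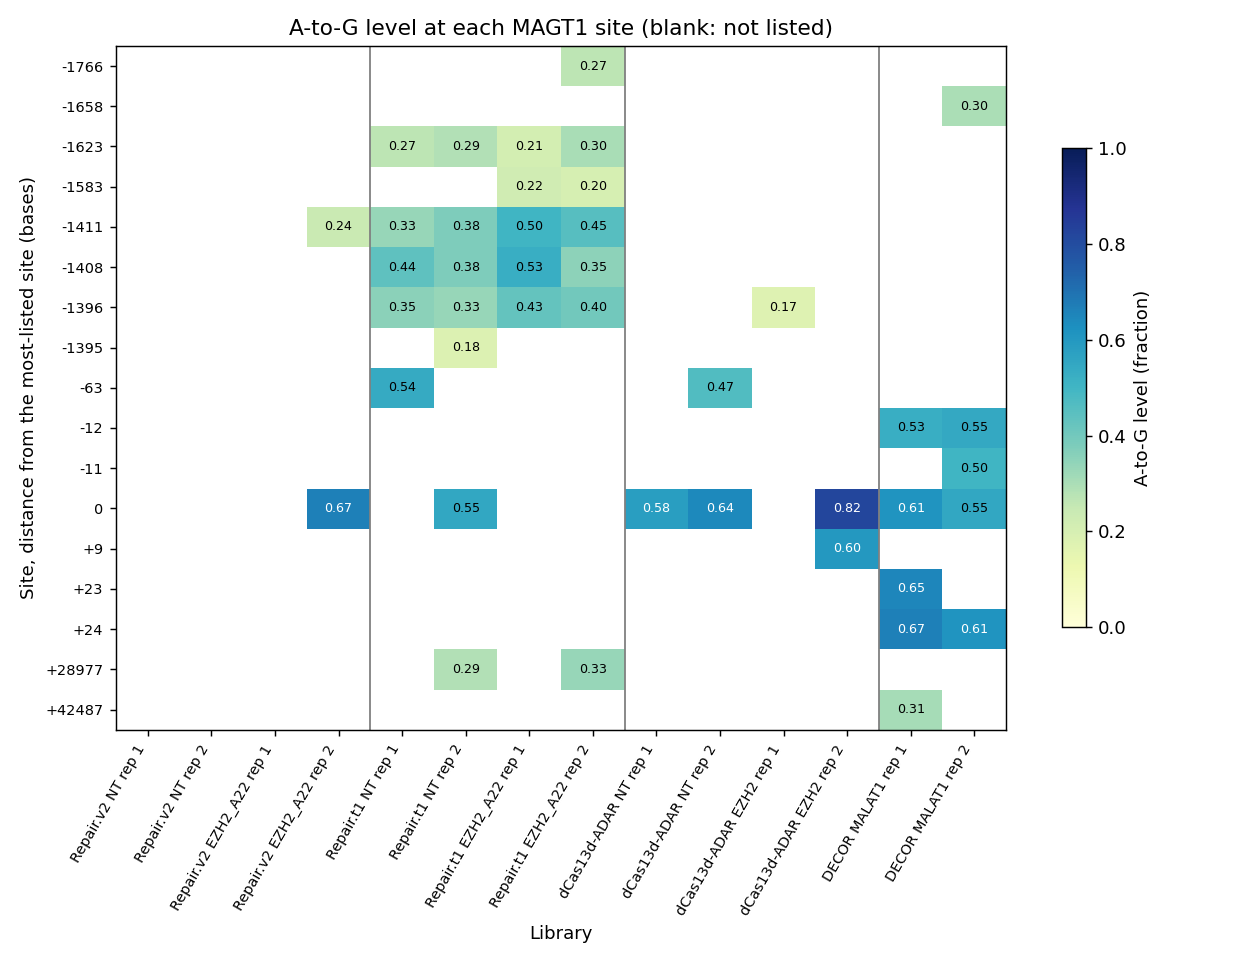
A-to-G level (fraction from 0 to 1, colour and printed value) of the 17 MAGT1 sites in the 14 libraries. Sites are placed by their distance in bases from position 77083891, and a blank cell means that the library does not list the site. Most Repair.t1 listings gather in the rows from -1623 to -1396, and most DECOR listings in those from -12 to +24.

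Of 14168 clusters and single sites formed at the same distance, 338 (2.39%) held at least 7 sites and 237 (1.67%) at least 8. Counted by site, 66.3% of all positions lay in clusters of at least 2, 12.9% in those of at least 7. Clusters of at least 8 held 10.2% of all positions. With links of up to 50 bases the lower cluster broke into a single site and groups of 3 and 4, and the upper one into a single site and a group of 6. Of the 17 sites, 6 (35.3%) had a listed neighbour 1 base away, as had 2.76% of all positions. The adjacent pairs were 77082495 and 77082496, listed together by Repair.t1 NT replicate 2, and, for DECOR, 77083879 with 77083880 in replicate 2 and 77083914 with 77083915 in replicate 1. These shares were set side by side without a test, and nearby positions can be covered by the same reads.

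Repair.t1 gave the most MAGT1 sites, with 5, 7, 5 and 7 in its NT and EZH2_A22 libraries (6 ± 1.15, mean ± SD, n = 4). DECOR gave 5 in each of its 2 libraries, which is within the range of Repair.t1. The dCas13d-ADAR libraries gave 1, 2, 1 and 2 (1.5 ± 0.577, n = 4), although their lists were longer than those of Repair.t1. Of the Repair.v2 libraries only EZH2_A22 replicate 2, whose list was the longest of that editor, had any, with 2 sites. As a mean share of the list, MAGT1 sites made up 0.495% in Repair.v2, through 1 library alone, and 0.13% in Repair.t1. The share was 0.088% in DECOR and 0.0259% in dCas13d-ADAR. Counted as distinct positions, Repair.t1 had 10, DECOR 7, dCas13d-ADAR 4 and Repair.v2 2. Such counts can grow with the number of libraries, which was 2 for DECOR and 4 for each other editor. Repair.t1 and DECOR each had 6 that no other editor listed, dCas13d-ADAR had 1 and Repair.v2 none.

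Position 77083891, in the upper cluster, was the 1 site listed under all 4 editors. It was listed in 7 libraries. Its level was 0.667 in Repair.v2 EZH2_A22 replicate 2 and 0.55 in Repair.t1 NT replicate 2. In dCas13d-ADAR libraries it was 0.579 and 0.643 with the NT guide and 0.818 in EZH2 replicate 2. DECOR had 0.611 and 0.55. The 7 values averaged 0.631 ± 0.0937 (SD), and the ranges of DECOR and dCas13d-ADAR overlapped. The lowest values were those of Repair.t1 and of DECOR replicate 2, and the dCas13d-ADAR EZH2 library stood above all others.

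Only 12 of the 26172 positions (0.0459%) were listed by all 4 editors, and 77083891 had the highest mean level of the 12 while being listed in the fewest libraries. The other 11 were listed in 8 to 14 libraries. In every library that listed it, 77083891 was above at least 97.3% of the list. It was the fourth highest of 5793 sites in dCas13d-ADAR EZH2 replicate 2 and second of 101 in the Repair.v2 library. Its spread was wide in dCas13d-ADAR, with an SD of 0.124 over 3 libraries, which exceeded that of 93.5% of the 1611 sites listed in 3 of that editor's libraries.

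No test of guides or editors is reported at 77083891. Because dCas13d-ADAR EZH2 replicate 1 did not list it, the site could enter a fit only once the library without it was left out, and that choice would rest on the outcome. Over the libraries that listed it, DECOR averaged 0.581 (n = 2) and dCas13d-ADAR 0.680 (n = 3), and the ranges overlapped as given above. Within dCas13d-ADAR the NT libraries averaged 0.611, and the 1 EZH2 library that listed the site lay above both of them.

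One other position was listed in all 7 of these libraries, 235277158 on chromosome 1, which is in all 14 lists, so its presence in the 7 is no pattern of its own. Its levels were 0.333 in the Repair.v2 library, 0.618 in the Repair.t1 library, 0.625, 0.667 and 0.667 in the dCas13d-ADAR libraries and 0.211 and 0.217 in DECOR. Over the 7 libraries its levels and those of 77083891 had a Pearson r of 0.33, a description of 7 points from 4 editors. At that position both DECOR values lay below all 3 dCas13d-ADAR values, while at 77083891 the editors overlapped; the difference between the 2 positions was not tested.

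The other sites of the upper cluster stood beside 77083891 and were high in the lists that held them. In DECOR, position 77083879, 12 bases lower, had 0.526 and 0.545, and position 77083915, 24 bases higher, had 0.667 and 0.611. Both were in both DECOR libraries and in no list of another editor. The single-library DECOR sites next to them, 77083880 and 77083914, had 0.5 and 0.65. Between the 2 libraries the SD was 0.0135 at 77083879, 0.0432 at 77083891 and 0.0393 at 77083915. The median SD over the 2067 sites in both DECOR lists was 0.0298, so only 77083879 lay below it.

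These 3 DECOR positions spanned 36 bases and ranked 14, 7 and 4 among those 2067 sites by mean level. Only 27 of the 2067 reached a mean level of 0.5, and 3 of the 27 were these MAGT1 positions. The limit of 0.5 was not among the planned settings. The 3 positions can be covered by the same reads and are not separate observations. Of the 2067, 151 (7.31%) had at least 2 others of the set within 36 bases on either side. That limit was taken from the MAGT1 positions themselves. Groups counted this way can spread over more than 36 bases, so the share is not a like-for-like measure. No other editor listed 4 of the 5 upper-cluster sites of DECOR, and over the whole gene 1 of its 7 positions (14.3%) was shared with another editor, where the share over all DECOR positions was 3.75%.

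The editors other than DECOR added 2 upper-cluster positions of their own. Position 77083900, 9 bases above 77083891, had 0.6 in dCas13d-ADAR EZH2 replicate 2, the same library that was highest at 77083891. Position 77083828, 63 bases below it, had 0.538 in Repair.t1 NT replicate 1 and 0.467 in dCas13d-ADAR NT replicate 2. Among Repair.t1 libraries, NT replicate 1 listed 77083828 and NT replicate 2 listed 77083891, and the EZH2_A22 libraries listed no site of this cluster. These are single listings, and a difference between guides in them was not tested.

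**Figure D2:**
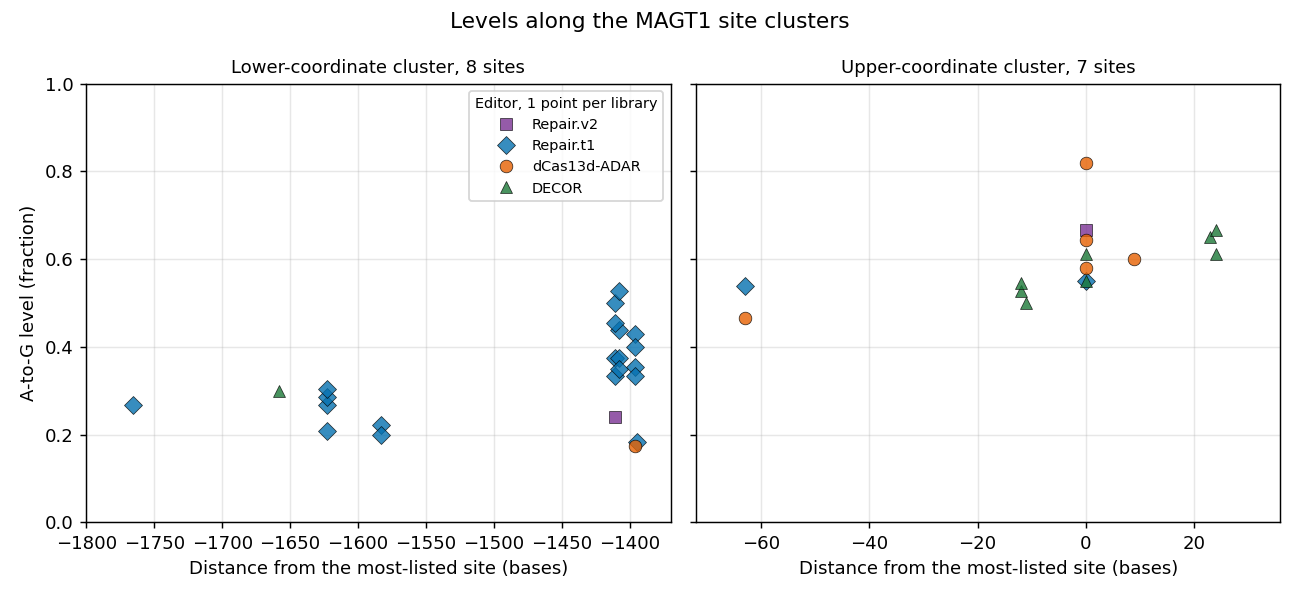
A-to-G level (fraction, y axis) against distance in bases from position 77083891 (x axis) for the lower-coordinate cluster on the left and the upper-coordinate cluster on the right. Each point is 1 library at 1 site, with colour and shape for the editor. Levels in the upper cluster run from 0.467 to 0.818 and in the lower cluster from 0.174 to 0.526.

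Listed levels were higher in the upper cluster than in the lower one. The upper cluster's 16 listings ran from 0.467 to 0.818 with a median of 0.590, and those of the lower cluster, 23 listings, from 0.174 to 0.526 with a median of 0.333. The ranges overlapped through Repair.t1 EZH2_A22 replicate 1, which had 0.5 and 0.526 at lower-cluster sites. In the 4 libraries that listed sites of both clusters, every upper site was above every lower site. These were DECOR replicate 2, both NT libraries of Repair.t1 and the 1 Repair.v2 library. Listings of the upper cluster stood above 90.8% to 99.9% of their library's list, those of the lower cluster above 15.8% to 97.0%.

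**Figure D3:**
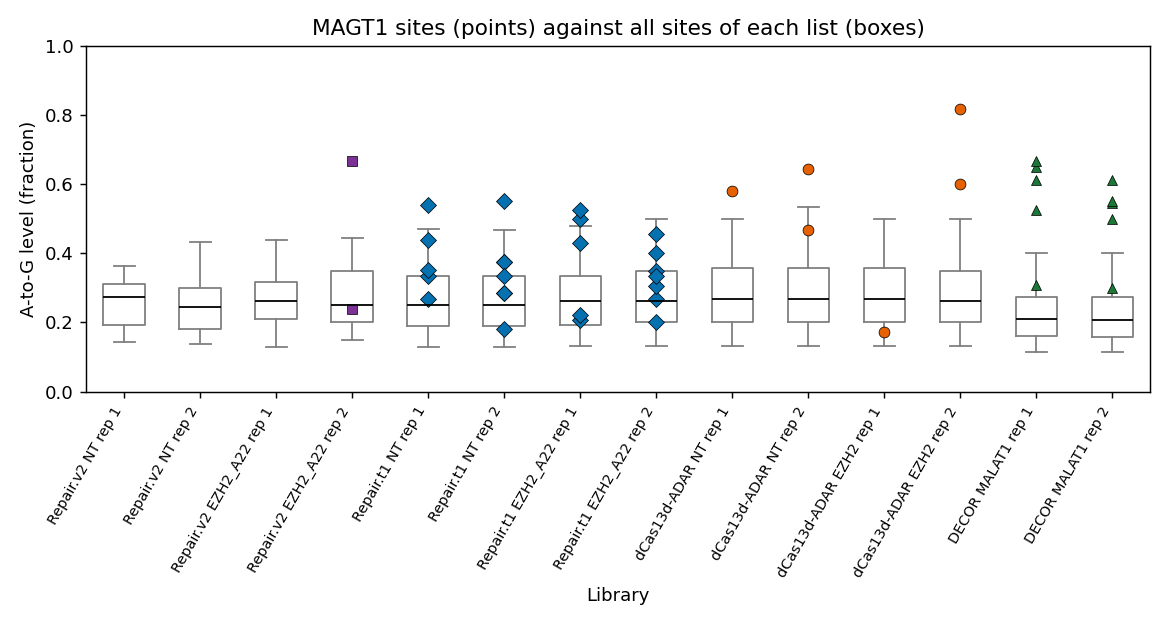
A-to-G level (fraction, y axis) of each MAGT1 site (points) over a box plot of all sites of the same library (x axis). Boxes show the quartiles and the median, and whiskers the 5th and 95th percentiles. The DECOR points from 0.5 to 0.667 lie above the upper whisker. The Repair.t1 points stand above 21.4% to 98.4% of their lists, most of them above the list median.

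The lower cluster held the sites that Repair.t1 libraries listed most steadily. Of these, 4 were listed by all 4 libraries of that editor: 77082268, 77082480, 77082483 and 77082495. The last 3 stand 3 and 12 bases apart. Position 77082480 had 0.333 and 0.375 with the NT guide and 0.5 and 0.455 with EZH2_A22. Position 77082483 had 0.438 and 0.375 with NT and 0.526 and 0.35 with EZH2_A22. Position 77082495 had 0.353 and 0.333, then 0.429 and 0.4. EZH2_A22 replicate 1 was the highest library at each of these 3 close positions.

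Position 77082268, more than 200 bases away from them, had 0.267 and 0.286 with NT and 0.208 and 0.304 with EZH2_A22, and there EZH2_A22 replicate 1 was the lowest. Among the 1053 sites listed by all 4 Repair.t1 libraries, at a median mean level of 0.292, the mean of 77082483 (0.422) exceeded 87.6% of the sites, that of 77082480 (0.416) 86.0%, that of 77082495 (0.379) 78.0% and that of 77082268 (0.266) 40.8%. Their SDs over the 4 libraries, 0.0416 to 0.0786, lay on both sides of the median SD of 0.0608.

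The remaining lower-cluster sites were each listed by 1 or 2 libraries, at 0.182 to 0.3. Position 77082308 had 0.222 and 0.2 in the EZH2_A22 libraries of Repair.t1, below the list medians of 0.261 and 0.263, and was in neither NT library. In the whole series 767 positions were in 2 Repair.t1 lists and in no list of another editor. How many of those split by guide was not counted, so no guide difference is read from this position. Positions 77082125 and 77082496 were in 1 Repair.t1 library each, at 0.267 and 0.182, and 77082233 was in DECOR replicate 2 alone, at 0.3, above 81.8% of that list.

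The 4 sites listed by all 4 Repair.t1 libraries were almost missing from the dCas13d-ADAR lists. Positions 77082268, 77082480 and 77082483 were in none of the 4 dCas13d-ADAR lists. Of these, 77082480 and 77082483 are 3 bases apart and can be covered by the same reads. Position 77082495 was in 1, EZH2 replicate 1, at 0.174, below all 4 of its Repair.t1 levels. Over the series, 79 of the 1053 sites in all 4 Repair.t1 lists (7.50%) were in no dCas13d-ADAR list and 609 (57.8%) were in all 4. The MAGT1 sites were gathered by where they are listed, so this is a description. Position 77082480 was also in the Repair.v2 EZH2_A22 replicate 2 list, at 0.24, and was the 1 site of those 79 that any Repair.v2 library listed. Coverage of these positions in the dCas13d-ADAR libraries is unknown, and its part in the missing listings was not tested.

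**Figure D4:**
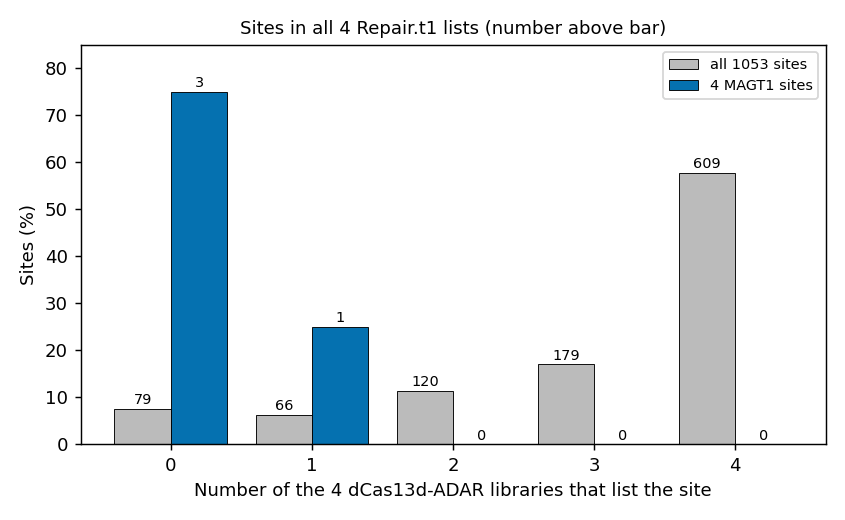
Share of sites in all 4 Repair.t1 lists (%, y axis) by the number of the 4 dCas13d-ADAR libraries that also list them (x axis), for all 1053 such sites (grey) and the 4 in MAGT1 (blue), with the number of sites above each bar. The MAGT1 sites fall at 0 and 1, and 609 of the 1053 at 4.

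With the EZH2_A22 guide in place of NT, no MAGT1 site of Repair.t1 passed the test. Levels of the 1053 sites were compared on log2 odds in limma, a moderated linear model fitted over all sites, with Benjamini-Hochberg adjustment over all of them. None of the 4 MAGT1 sites passed an adjusted p of 0.05, and neither did any other (0%). At an unadjusted limma p below 0.05 stood 61 of the 1053. The fit set 2 libraries against 2, so a site that did not pass cannot be read as unchanged. EZH2_A22 minus NT was 0.72 (SE 0.47, limma adjusted p = 0.985) at 77082480, 0.43 (SE 0.47, adjusted p = 0.999) at 77082495, 0.18 (SE 0.49) at 77082483 and -0.16 (SE 0.48) at 77082268. The median of the 4 was 0.30, against 0.05 over all sites tested.

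The mean was higher with EZH2_A22 at 3 of the 4 sites, as it was at 54.8% of the 1053. These 3 lie close together, and the same reads can cover them. They are therefore not separate observations, here or in the median of the 4 above. At 77082480 and 77082495 both EZH2_A22 libraries lay above both NT libraries. Such a separation was seen at 17.4% of the 1053 sites, and the opposite at 13.0%. At 77082483 and 77082268 the guides overlapped, and the sign at both turned when EZH2_A22 replicate 1 was left out, to -0.34 and 0.19. At 77082483 it also turned without NT replicate 2, to -0.0073. No MAGT1 site was listed by all 8 libraries of Repair.t1 and dCas13d-ADAR, by all 4 of dCas13d-ADAR or by all 6 of DECOR and Repair.t1, so none could enter a fit over those libraries.

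The isolated sites had levels above the medians of their lists. Position 77112868, 28953 bases above the upper cluster, had 0.286 in Repair.t1 NT replicate 2 and 0.333 in EZH2_A22 replicate 2, above 61.3% and 70.2% of those lists. Position 77126378, a further 13510 bases up, had 0.308 in DECOR replicate 1 alone, above 83.6% of that list.

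Of the 17 positions, 4 (23.5%) were listed by at least 2 editors: 77082480, 77082495, 77083828 and 77083891. Over all positions the share was 23.0%. A dCas13d-ADAR list held 3 of the 10 Repair.t1 positions, and a Repair.t1 list held 3 of the 4 dCas13d-ADAR positions. The same shares over all positions were 54.5% and 47.0%. Of the 17, 7 (41.2%) were in 1 library only, against 58.3% of all positions.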

How the data were processed

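The authors deposited 1 list per library, giving chromosome, position and A-to-G rate as a fraction per the file headers; the lowest rate in any list was 0.0597. The submitters' processing notes name cutadapt, STAR 2.6.1b, hg19 and GRCh37, with no role or order. Site caller, thresholds and coverage minimum were not given in the sources used here. The gene, tests and spacing limits were chosen with earlier results of these data known.

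Levels were turned into log2 odds (0.01 was added to both the level and its complement) and fitted in limma 3.58.1 (R 4.3.3) over all sites listed in every library compared, with an adjusted p threshold of 0.05. The script was tested on simulated data. Sites were to be named if listed by at least 2 editors, by both DECOR libraries, by all 4 libraries of Repair.t1 or dCas13d-ADAR, or by Repair.v2; the remaining few were named after their values were seen. Related genes were not analysed here, since the gene table is of another build. Python 3.11.15, numpy 2.4.6, pandas 2.3.3 and matplotlib 3.10.9 were used.

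Alternatives were minimum levels (0.1, 0.2), an added 0.001, untransformed levels, a trend of the spread, a replicate block, single guides, no guide term and each library left out. Sites missing from at most 1 library and links of 50 bases were chosen after seeing the data. Same-numbered Repair.t1 libraries did not deviate together (r = 0.0486 over 1053 sites), so the numbers were not treated as pairs.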

Additional observations from a re-analysis of the deposited data

Results flagged for a closer look

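Among the 4 Repair.v2 libraries, EZH2_A22 replicate 2 stood apart, with 2 MAGT1 sites where the other 3 had 0. The NT and EZH2_A22 libraries were pooled for this comparison, and its list of 101 sites was the longest of the 4. Of the 7 sets of 4 libraries examined for a value far from the rest, 1 was marked, where the limit used is nominally passed by chance in about 1 in 20 groups of continuous values, which these counts are not.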

How the results depend on the processing

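The 0 MAGT1 sites called in the guide comparison of Repair.t1 stayed at 0 under the 10 alternatives, and so did the count over the whole table, with 62 sites at an unadjusted p below 0.05 in the fit with the replicate block; at 77082480 that block gave 0.72 log2 odds with adjusted p = 0.999. Over the alternatives the adjusted p ran from 0.794 to 1 over the 4 sites. The sign turned at 77082483 without Repair.t1 NT replicate 2 (-0.0073) and without EZH2_A22 replicate 1 (-0.34), and at 77082268 without EZH2_A22 replicate 1 (0.19); there 1 guide had 1 library, assumed to vary like the others. With 1 library left out in turn the difference ran from -0.34 to 0.69 at 77082483 and from -0.52 to 0.19 at 77082268. Counting only sites in both libraries of a group lowered the sites per library to 4.5 for Repair.t1, 0.5 for dCas13d-ADAR and 3 for DECOR. Sites shared between editors rose from 4 to 13 when positions within 50 bases counted as shared, and fell to 1, position 77083891, when at least 2 libraries of an editor were required. Without Repair.v2 EZH2_A22 replicate 2 no Repair.v2 site remained in MAGT1. No MAGT1 site was listed in every library of the other comparisons; 77083891 entered those of dCas13d-ADAR guides and of DECOR with dCas13d-ADAR only without dCas13d-ADAR EZH2 replicate 1 or with 1 missing listing allowed. Those 4 fits condition on the site being listed, so their values are not given and nothing is drawn from them. DECOR against Repair.t1 had 19 sites in every library, under the minimum of 20 set for a fit, and was not fitted; no MAGT1 site was among them. Depth per site is unknown, so a missing listing cannot be read as a lack of editing.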

Other observations

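The chromosome around MAGT1 was listed unevenly, with 0 positions in the 1000000 bases below the window. In the 1000000 bases above it 36 positions were listed, 20 by Repair.t1, 17 by DECOR, 11 by dCas13d-ADAR and 0 by Repair.v2, and 11 of them by at least 2 editors. The nearest, position 77158187, was 7087 bases above the window and was the 1 position within 200000 bases of it; the others reached up to position 77381947.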
